A study of Heliocidaris erythrogramma with 5 samples.

Results

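Genes of the ciliary axoneme and of intraflagellar transport were followed in larvae of the sea urchin *Heliocidaris erythrogramma*. Members were chosen by name alone: every feature whose annotated name begins with Dnah, Dnai, Dnal, Dynlc (without Dynlc2), Tektin, Ift, Rsph, Efcab or Odad, all copies included. This gave 73 of 38707 features, which carry 47 gene symbols. The names are those of the purple sea urchin matches in the annotation of the deposited files. A gene that is part of the axoneme under another name is not a member.

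Larvae of this species do not feed and swim by beating cilia, and sea urchin larvae bear a ciliary band and, at the animal pole, a region with longer cilia. The shaft of a motile cilium, the axoneme, is a ring of doublet microtubules that slide against each other when the dynein arms on them burn ATP. Cilia have no ribosomes, so intraflagellar transport (IFT) carries building blocks out to the tip on kinesin motors and back to the cell body on a dynein motor. The transcription factor gene *Onecut* was used by the study as a marker of the ciliary band.

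Whole larvae were dissociated and their cells counted by droplet RNA-seq, with 1 library at each of 36, 42, 48, 56 and 60 hours post fertilization (hpf). The libraries share their culture at 23°C, methanol fixation and 3′ end chemistry, and no treatment or genotype was compared. The sources used here do not give how many larvae or crosses went into a library. For the library labelled 56 hpf the file name and the methods give 54 hpf, and its exact age is uncertain. With 1 library per age, differences between ages have no replicate and no p-value, and the intervals below are exact 95% Poisson or Clopper-Pearson intervals that cover counting error only.

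The 5 libraries held 4080 to 8972 cells after the study's filter, 26740 in all, with 4193645 to 12136079 unique molecular identifiers (UMIs, 1 for each captured RNA molecule). The median cell had 814 to 1634.5 UMIs, highest at 42 hpf and lowest at 56 hpf. Barcodes found in more than 1 library numbered 71 of 26669. Doublets were not removed. In summed libraries, fewer ciliated cells and less RNA per ciliated cell cannot be told apart.

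Of the 73 members, 58 had at least 1 UMI and 15 had none in any kept cell. Together they gave 122360 UMIs. Dynein heavy chains (Dnah, also spelled Dnahc), the motor subunits of the axonemal arms, were the largest family, with 31 features, 24 of them with a UMI. Intraflagellar transport proteins (Ift) had 15 features and 14 with a UMI. Efcab genes, named for the EF-hand fold that binds calcium, had 14 and 9, and not all Efcab proteins are known from cilia. Dynlc genes encode dynein light chains, which also serve motors and other complexes outside cilia, and had 8 and 6. The 3 tektins, filament proteins that lie along the doublet microtubules, and the 2 Odad genes all had UMIs. The files do not expand the Odad names, *Odadc1L* and *Odadc3L3*, so no role is given to them here. No feature carried a Dnai, Dnal or Rsph name, so dynein intermediate chains and radial spoke proteins are not represented under these names.

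The UMIs were unevenly spread over the members. *Tektin3* (HER_16505) took 14.7% of them with 18003 UMIs, and *Odadc1L* (HER_17969) took 12.8% with 15717. The next were *Ift74* with 7483, *Dnah9_1* with 6548, *Dnahc8* (HER_34883) with 5101, *Ift88_1* with 4608 and *Tektin2* with 4399 UMIs, and these 7 members made up 50.6% of the total. Sums over all members were therefore also taken without *Tektin3* and *Odadc1L*. The chemistry counts 3′ ends, so counts of different members say nothing firm about which protein is more abundant.

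Several names recurred. Of the 47 symbols, 15 were carried by more than 1 feature, some with close feature numbers, and counts of copies with like sequence may be divided among them or dropped. In *Ift57_1*, 64.3% of 5056 UMIs fell on 1 of 3 copies, and in *Efcab6L_2*, 50.3% of 1733 fell on 1 of 2 copies. In *Dnah5*, 92.0% of 4177 UMIs fell on HER_45128 and 2 of the 5 copies had none. Levels of such copies are given by feature number and are uncertain. Features with close numbers may be parts of 1 gene model, so counts of members need not be counts of separate genes.

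The summed share of members in each library was lowest at 42 hpf and highest at 60 hpf. In CPM, which are UMIs scaled to 1 fixed total per library or group of cells, the members summed to 2888 (2851 to 2925), 2438 (2406 to 2472), 3247 (3201 to 3294), 3578 (3521 to 3636) and 3684 (3650 to 3718) in order of age. Between the first and the last age the share differed by a ratio of 1.28 (1.26 to 1.30). Without *Tektin3* and *Odadc1L* it was 2018, 1707, 2405, 2896 and 2629 CPM in order of age, highest at 56 hpf. This place depended on the scaling: with the sums divided by size factors (normalized counts) it was 14614, 13878, 17877, 17103 and 19684, highest at 60 hpf, and lowest at 42 hpf on both scales.

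The families did not follow 1 course. Dnah genes took 597, 479, 766, 1064 and 1040 CPM in order of age, a ratio of 1.74 between the last and the first (1.68 to 1.80). Tektins took 378, 302, 586, 610 and 971 CPM in the same order, a ratio of 2.57 (2.47 to 2.68). Ift genes took 689, 585, 895, 913 and 774 CPM, a ratio of 1.12 (1.09 to 1.16). The ratio of the Dnah sum lay above that of the Ift sum, with intervals that do not overlap. The tektin ratio was carried by *Tektin3*, and the folds of the other 2 tektins, given below, were smaller. The Ift sum was highest at 56 hpf in CPM but at 48 hpf in normalized counts (4988, 4756, 6654, 5392 and 5798). The Odad sum, nearly all of it *Odadc1L*, was lower at the later ages, with 633, 536, 403, 273 and 258 CPM, and its lowest value was at 56 hpf in normalized counts (1612, against 1930 at 60 hpf). *Odadc3L3* did not follow it. Efcab genes lay between 377 and 527 and Dynlc genes between 121 and 191 CPM.

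**Figure D1:**
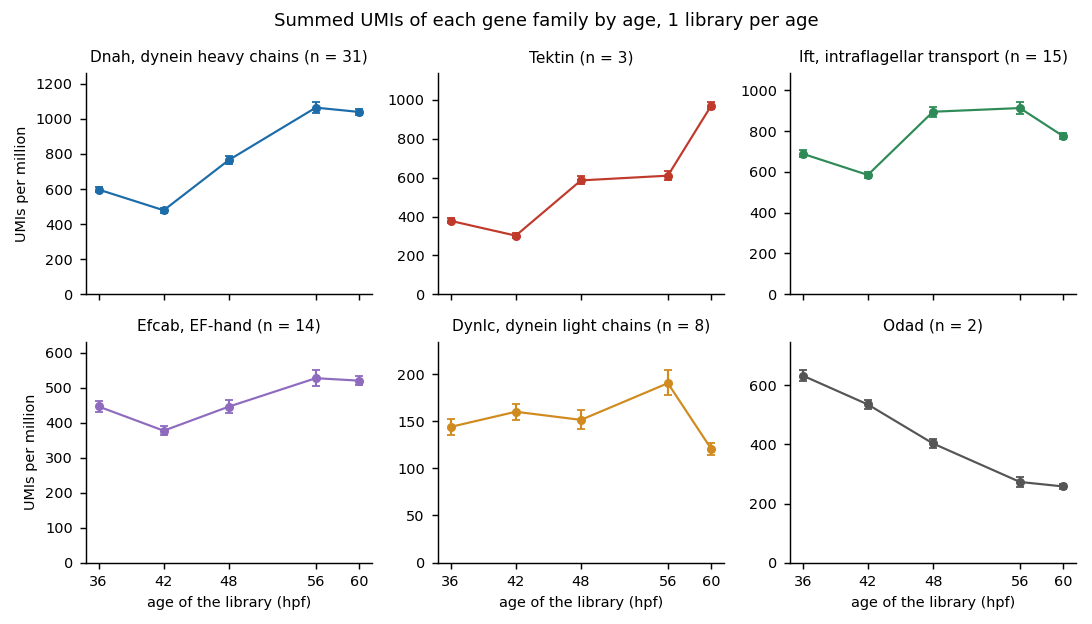
Summed CPM of each library (vertical axis, starting at 0, own scale in each panel) against age in hpf for the 6 families with members, n giving the number of features; bars are 95% Poisson intervals and each point is 1 library. Dnah and Tektin shares at 60 hpf were 1040 and 971, against 597 and 378 at 36 hpf, Ift was highest at 56 hpf with 913, and Odad was lowest at 60 hpf with 258, while on the size-factor scale Ift was highest at 48 hpf and Odad lowest at 56 hpf.

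To compare single members between ages, normalized counts were used, and 53 members with a mean of at least 10 were kept. At 60 hpf, 8 of these reached at least 2-fold the count of 36 hpf, against a background of 10.2% of all 14061 features that passed the same filter, and 2 were lower by at least that fold, against 12%. The first count lies close to its background and the second below it. By direction alone, 46 of 53 were higher at 60 hpf. The counting interval of the ratio lay above 1 for 38 members (background 29%) and below 1 for 4 (background 30%). The median log2 change was 0.55 for members and -0.01 for all features.

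All 22 Dnah members that passed were higher in the 60 hpf library than in the 36 hpf one, under every alternative scaling too, with a median log2 change of 0.82 and a range of 0.21 to 1.81. For 18 of them the counting interval lay above 1. *Dnah7* (HER_21296), an inner arm heavy chain in vertebrates, had normalized counts of 29.0, 27.3, 46.9, 47.9 and 104 in order of age. It was the member with the largest fold, 3.59 (2.45 to 5.42). *Dnah9_1* (HER_16222), whose vertebrate namesake is an outer arm heavy chain, had 727, 683, 1131, 1303 and 1991 normalized counts, a fold of 2.74 (2.53 to 2.96). *Dnahc11* (HER_42917) had 91.6, 96.0, 159, 182 and 234, and *Dnah9L* (HER_42915) had 95.2, 65.0, 184, 155 and 240, with folds of 2.55 (2.05 to 3.21) and 2.52 (2.03 to 3.16). Most of the difference in these 4 came after 42 hpf. Of them, *Dnahc11* and *Dnah9L* have close feature numbers and may not be separate genes. The most abundant of the rest, *Dnahc8* (HER_34883), had 826, 651, 914, 990 and 1292 normalized counts, and *Dnah5* (HER_45128), a core outer arm heavy chain in vertebrates, had 641, 559, 787, 900 and 800. Their folds were 1.56 (1.45 to 1.69) and 1.25 (1.14 to 1.37).

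*Tektin3* was the second in size of fold and the first in UMIs over all libraries, with *Odadc1L* next. It had 1769, 1684, 3423, 2519 and 6074 normalized counts in order of age, a fold of 3.43 (3.27 to 3.61) between the first and the last age. The 60 hpf library stood well above the other 4. *Tektin2* had 824, 621, 767, 884 and 995 and *Tektin1-4* had 141, 147, 165, 200 and 202 normalized counts, with folds of 1.21 (1.11 to 1.31) and 1.43 (1.18 to 1.74). When each cell was given equal weight, the log2 change of *Tektin2* was -0.020 in place of 0.27, so no direction is given for it.

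Among Ift genes, 10 of 14 were higher and 4 lower at the last age, with a median log2 change of 0.15. With equal weight for each cell 7 of 14 were higher. The interval lay above 1 for 6, below 1 for 1 and spanned 1 for 7. *Ift74*, *Ift81*, *Ift88*, *Ift52*, *Ift57*, *Ift20*, *Ift80* and *Ift172* proteins belong to the IFT-B complex of outward transport, and *Ift122* and *Ift140* to the IFT-A complex of the return. *Ift74* had 1302, 1195, 1794, 1356 and 1504 normalized counts in order of age, and *Ift81h* (HER_19792), whose protein pairs with that of *Ift74*, had 541, 461, 726, 566 and 476. Both were highest at 48 hpf. The copy HER_42754 of *Ift57_1* showed this peak most, with 501, 546, 1102, 634 and 508 normalized counts. *Ift88_1* had 817, 768, 785, 741 and 1087 and *Ift20* had 687, 703, 784, 834 and 853, both highest at 60 hpf. Lower at 60 hpf beyond counting error was only *Ift81h*, with a ratio of 0.880 (0.790 to 0.981). *Ift122h* (HER_39905) had the lowest ratio of the family, with 48.0, 39.5, 28.7, 21.1 and 33.3 normalized counts and 0.693 (0.466 to 1.03), an interval that spans 1. The feature next to it by number, *Ift122Ap* (HER_39903), had 192, 266, 297, 228 and 334. For *Ift74* the log2 change of 0.21 became -0.0060 with equal weight for each cell, and its direction is left out.

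The remaining families held the members with the largest differences downward. *Odadc1L* had 4524, 4259, 2842, 1508 and 1820 normalized counts in order of age, and its log2 change was -1.31. *Dynlc1-2* (HER_377) had 673, 768, 508, 463 and 307, with a log2 change of -1.13, while another copy under the same name, HER_378, had 121, 108, 182, 159 and 221 with a fold of 1.83 (1.50 to 2.25). The copies of 1 light chain name thus differed in opposite directions. *Efcab7*, which in mammals is a protein of the ciliary base and not of the axoneme, had 902, 998, 840, 563 and 560 normalized counts and a log2 change of -0.69. All other Efcab members that passed, 7 of 8, were higher at 60 hpf, among them *Efcab12* with 525, 358, 491, 721 and 848. *Dynlc1-1* (HER_375) was low at both ends, with 125, 333, 343, 325 and 166 normalized counts. *Odadc3L3* had 62.5, 94.2, 156, 104 and 110.

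The dip at 42 hpf ran through most members. The lowest normalized count was at 42 hpf for 33 of 53 members (background 18.6%), among them 18 of 22 Dnah members. The highest was at 60 hpf for 32 (background 27.2%) and at 48 hpf for 11 (background 14.2%). From 36 to 42 hpf 15 members were higher and 38 lower, with a median log2 change of -0.09, and from 42 to 48 hpf 48 were higher and 5 lower, with a median of 0.41. From 48 to 56 hpf the members divided, 25 higher and 28 lower, and from 56 to 60 hpf 41 were higher and 12 lower. For these step counts by direction no share over all features was taken. A shift common to many features of a library is therefore not set apart in them. Steps of at least 2-fold upward were made by *Dynlc1-1* alone from 36 to 42 hpf (background 3.41%), by 6 members from 42 to 48 hpf (background 4.16%), among them *Tektin3*, *Dnah9L* and *Ift57_1* (HER_42754), by none from 48 to 56 hpf (background 4.11%), and by 3 from 56 to 60 hpf (background 3.31%), among them *Tektin3* and *Dnah7*. No member was lower by at least that fold at any of the 4 steps (backgrounds 1.69%, 4.89%, 3.66% and 4.13%). Only *Dynlc1-2* (HER_377) and *Efcab7* were highest at 42 hpf (background 19.4%). The members *Dnah7_2* (HER_21301), *Dnahc11*, *Ift20* and *Tektin1-4* were higher at every step, and no member was lower at every step (backgrounds 3.83% and 4.69%). The 42 hpf library was also the deepest per cell, and the part of depth in the dip was not tested.

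**Figure D2:**
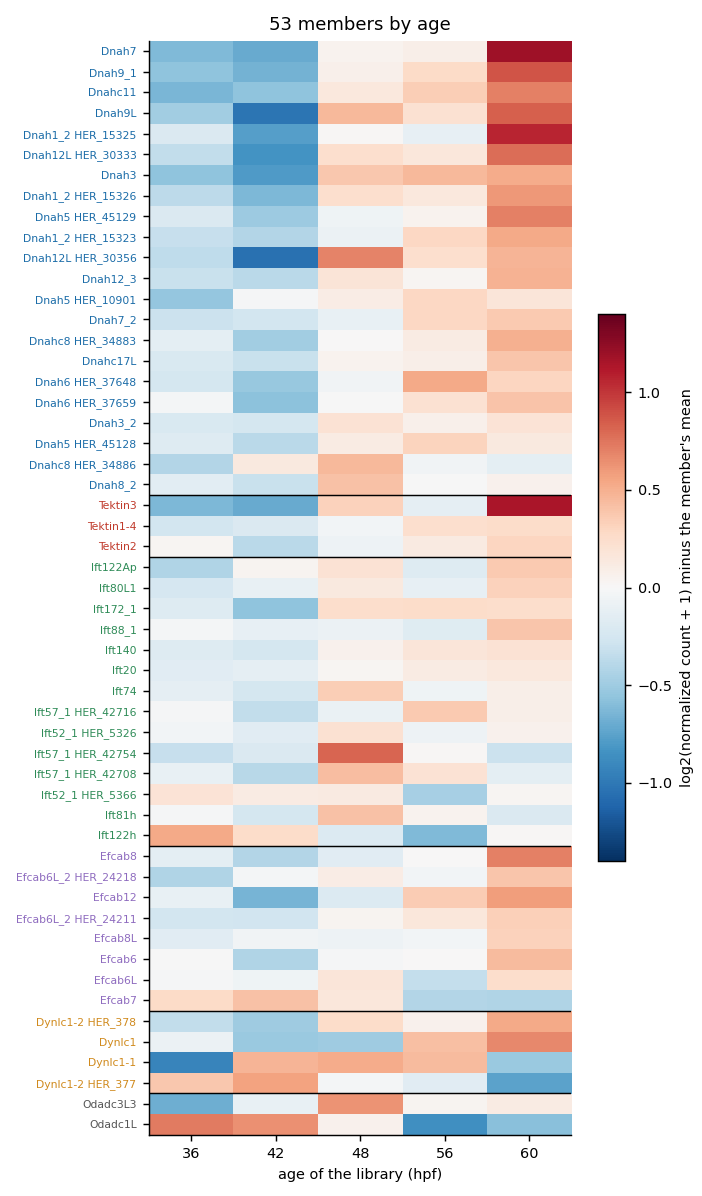
Log2(normalized count + 1) of each of the 53 members that passed (rows, grouped and coloured by family, feature number given where a symbol recurs) minus that member's mean over the 5 libraries (colour scale) at each age in hpf (columns). Blue at 42 hpf marks the 33 members lowest there, and red at 60 hpf the 32 members highest there, most strongly *Dnah7* and *Tektin3*.

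To ask whether these genes were enriched in the ciliary band, cells with at least 1 *Onecut* UMI (*Onecut* cells) were compared with all other cells of the same library. In order of age there were 792, 745, 715, 624 and 1955 *Onecut* cells, against 4522, 3523, 3365, 3482 and 7017 other cells. *Onecut* cells were deeper than other cells in every library, with medians of 1475.5, 1908, 1383, 996 and 1475 UMIs in *Onecut* cells, against 1281.5, 1568, 1076, 785 and 937 UMIs in other cells. Deeper cells are more likely to show an *Onecut* UMI, so the group is a mixture and not a sorted cell type. *Tck*, taken below as a marker of ciliated cells, was not called in *Onecut* cells, with -0.15 on the log2 scale (adjusted p = 0.241, edgeR quasi-likelihood test). *Atub13*, an alpha tubulin gene that the study lists as another ciliary band marker, has several copies. The most abundant, HER_35876, was higher in *Onecut* cells by 0.67 on the log2 scale (adjusted p = 0.000227, edgeR quasi-likelihood test), as were HER_35862 by 0.87 and HER_35856 by 0.71, while HER_35858 was lower, with -0.46.

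Of 20 tested features that mark other cell types or neurons, 16 were called lower in *Onecut* cells (background 8.74%) and 2 higher (background 10.4%). *Pks1* of pigment cells had -1.70, *Scl* of blastocoelar cells -2.24 on the log2 scale, and *Sm37* of skeletal cells had 0 UMIs in *Onecut* cells up to 56 hpf and 44 at 60 hpf, against 47, 128, 37, 24 and 302 in other cells in order of age. Markers of dividing cells were higher, *Plk1* by 0.85 and *Cdk1* by 0.73. The 2 called higher were *Otp* and *Th*, which mark ciliary band neurons, by 1.66 and 1.95. The general neural markers went the other way. *Syt4* (HER_10174) was called lower at -0.70, and *Secrtag* had -0.49 and was not called (adjusted p = 0.0833, edgeR). *Otp*, a transcription factor gene, had 37.3 CPM in *Onecut* cells and 5.84 in other cells at 36 hpf. At 60 hpf it had 16.2 in *Onecut* cells and 19.0 in other cells. *Th* likewise was not higher in *Onecut* cells at 60 hpf, with 9.86 CPM against 10.1 in other cells. In order of age, 185, 217, 190, 169 and 920 *Onecut* cells also held a UMI of an animal pole marker. The part of depth, division and these overlaps in the comparison was not tested beyond the subsets given with the results.

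Members as a group took more of the UMIs in *Onecut* cells than in other cells in all 5 libraries. In order of age they took 4222, 3531, 3941, 4332 and 4541 CPM in *Onecut* cells, against 2626, 2176, 3049, 3400 and 3316 CPM in other cells. The ratios were 1.61 (1.56 to 1.66), 1.62 (1.57 to 1.67), 1.29 (1.25 to 1.34), 1.27 (1.23 to 1.32) and 1.37 (1.34 to 1.40). Without *Tektin3* and *Odadc1L* they were 1.51, 1.47, 1.18, 1.18 and 1.26. The intervals of the first 2 ages lie above those of the later 3. Over the 50 members tested, the median ratio was 1.52, 1.55, 1.11, 1.21 and 1.26 in order of age, while the median over all features was between 0.99 and 1.04.

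In the edgeR quasi-likelihood test across 11867 features, with the library as a block and Benjamini-Hochberg adjustment, 21 of 50 members were called higher in *Onecut* cells (background 10.4% of features) and 1 lower (background 8.74%). The log2 fold change was above 0 for 43 of 50 members, with a median of 0.40 against 0.02 over all features. In 21 members the ratio was above 1 in 5 of 5 libraries (background 15.8%). The error of this test is the spread of the contrast over 5 libraries of different ages. Called higher were 15 members in DESeq2 (background 6.15%), 12 of 43 tested with cells thinned to 500 UMIs (background 9.22%), 16 of 48 without *Plk1* or *Cdk1* cells (background 6.86%), and 10 of 48 when an *Onecut* cell had to hold at least 2 *Onecut* UMIs (background 8.1%), each of them also among the 21. The 9 members that lost their call at 500 UMIs a cell were *Tektin1-4*, *Ift88_1*, *Ift122Ap*, *Ift57_1* (HER_42708), *Dnah9L*, *Dnahc17L*, *Dnah12_3*, *Efcab7* and *Efcab12*, with adjusted p of 0.0569 to 0.746 (edgeR).

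All 3 tektins were called higher (background 10.4%). *Tektin3* took 446, 388, 650, 626 and 1094 CPM in *Onecut* cells in order of age, against 205, 164, 406, 379 and 690 in other cells. *Onecut* cells were above other cells in each library, and in both groups of cells the 60 hpf library was highest. Its log2 fold change was 0.88 (SE 0.094, adjusted p = 0.000176, edgeR). *Tektin2* took 209, 133, 133, 184 and 164 CPM in *Onecut* cells, against 95.2, 62.8, 94.6, 142 and 120 in other cells, with a log2 fold change of 0.71 (SE 0.12, adjusted p = 0.00173, edgeR). *Tektin1-4* had a log2 fold change of 0.69 (SE 0.14, adjusted p = 0.00447, edgeR), and its call was lost with cells thinned to 500 UMIs, where the adjusted p was 0.236.

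All Ift genes tested leaned the same way, with a log2 fold change above 0 for 14 of 14 members and 7 called (background 10.4%). Called were *Ift81h* at 0.60, *Ift20* at 0.59, *Ift74* at 0.51, *Ift122Ap* at 0.50, *Ift88_1* at 0.42 and 2 copies of *Ift57_1* at 0.45 (HER_42754) and 0.41 (HER_42708). The last lost its call without the 36, 42 or 60 hpf library (adjusted p of 0.0926 to 0.111, edgeR). At 500 UMIs a cell *Ift88_1* had 0.24 (adjusted p = 0.152, edgeR). *Ift20*, which in vertebrates also works at the Golgi, took 167, 127, 140, 164 and 135 CPM in *Onecut* cells, against 80.8, 76.8, 95.7, 136 and 105 in other cells (SE 0.11, adjusted p = 0.00308, edgeR). Its ratio was 2.06 at 36 hpf and 1.21 at 56 hpf, where it was smallest. *Ift74*, the Ift gene with the most UMIs, had an SE of 0.085 and an adjusted p of 0.00163 (edgeR), with ratios of 1.23 to 1.68.

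Of 19 heavy chain members tested, 7 were called higher (background 10.4%), 15 had a log2 fold change above 0 and 4 below. The largest were *Dnah6* (HER_37648) at 0.68 (SE 0.12, adjusted p = 0.00238, edgeR) and *Dnah9_1* at 0.62 (SE 0.11, adjusted p = 0.00209, edgeR). *Dnah9_1* took 177, 135, 184, 272 and 327 CPM in *Onecut* cells in order of age, against 85.3, 71.6, 143, 208 and 240 in other cells. *Dnahc8* (HER_34883), *Dnahc17L*, *Dnah9L*, *Dnah7_2* and *Dnah12_3* were called at 0.42 to 0.47. The call of *Dnah9L* was lost when any 1 of the 36, 42, 48 or 60 hpf libraries was left out (adjusted p of 0.0766 to 0.111, edgeR), as was that of *Dnahc17L* (0.0708 to 0.141), and *Dnah7_2* lost its call without the 36 hpf library (0.0588) or the 42 hpf library (0.0548). With cells thinned to 500 UMIs *Dnahc17L* had 0.14 (adjusted p = 0.746, edgeR) and *Dnah12_3* had 0.24 (adjusted p = 0.230, edgeR). At the lower end, *Dnah5* (HER_10901) had -0.41, *Dnahc8* (HER_34886) -0.23 and *Dnah3* (HER_37414) -0.19, none of them past the threshold, with adjusted p of 0.496, 0.536 and 0.767 (edgeR). These rest on 122, 365 and 254 UMIs. The 2 features named *Dnahc8* thus differ in sign, and the feature with most of the UMIs was the one called.

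The Efcab family held the member with the largest fold. *Efcab8* (HER_19189), an EF-hand gene, took 40.4, 25.7, 22.7, 28.6 and 28.2 CPM in *Onecut* cells in order of age, against 6.44, 4.74, 8.35, 13.3 and 17.8 in other cells. Its level in *Onecut* cells was highest at 36 hpf, while in other cells it was higher at 56 and 60 hpf than before. The ratio was 6.26 (4.11 to 9.59), 5.41 (3.36 to 8.79), 2.72 (1.61 to 4.55), 2.15 (1.24 to 3.63) and 1.58 (1.22 to 2.05) in order of age. The log2 fold change was 1.56 (SE 0.27, adjusted p = 0.00186, edgeR), on 560 UMIs in all. *Efcab12* at 0.35 and *Efcab7* at 0.33 were also called (adjusted p of 0.0335 and 0.0139, edgeR), and *Efcab12* lost its call when any 1 of the 36, 42, 48 or 60 hpf libraries was left out (adjusted p of 0.0571 to 0.150, edgeR). *Efcab6L*, another EF-hand gene and, like *Tck*, chosen here as a marker of ciliated cells, had -0.01 (adjusted p = 0.967, edgeR).

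Both remaining families held a member that stood apart. *Odadc1L* took 959, 838, 559, 392 and 372 CPM in *Onecut* cells in order of age, against 559, 448, 332, 223 and 187 in other cells. It was lower at the later ages in both groups of cells, yet its ratio stayed between 1.69 and 1.99, with a log2 fold change of 0.85 (SE 0.071, adjusted p = 0.000116, edgeR). *Dynlc1-2* (HER_377) was the only member called lower. It took 62.5, 74.6, 50.2, 55.9 and 32.6 CPM in *Onecut* cells, against 99.1, 99.3, 73.6, 83.8 and 44.7 in other cells, with a log2 fold change of -0.53 (SE 0.090, adjusted p = 0.00179, edgeR). *Odadc3L3* had a log2 fold change of -0.35 (SE 0.29), with ratios of 0.248 to 1.35, and was not called (adjusted p = 0.468, edgeR).

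**Figure D3:**
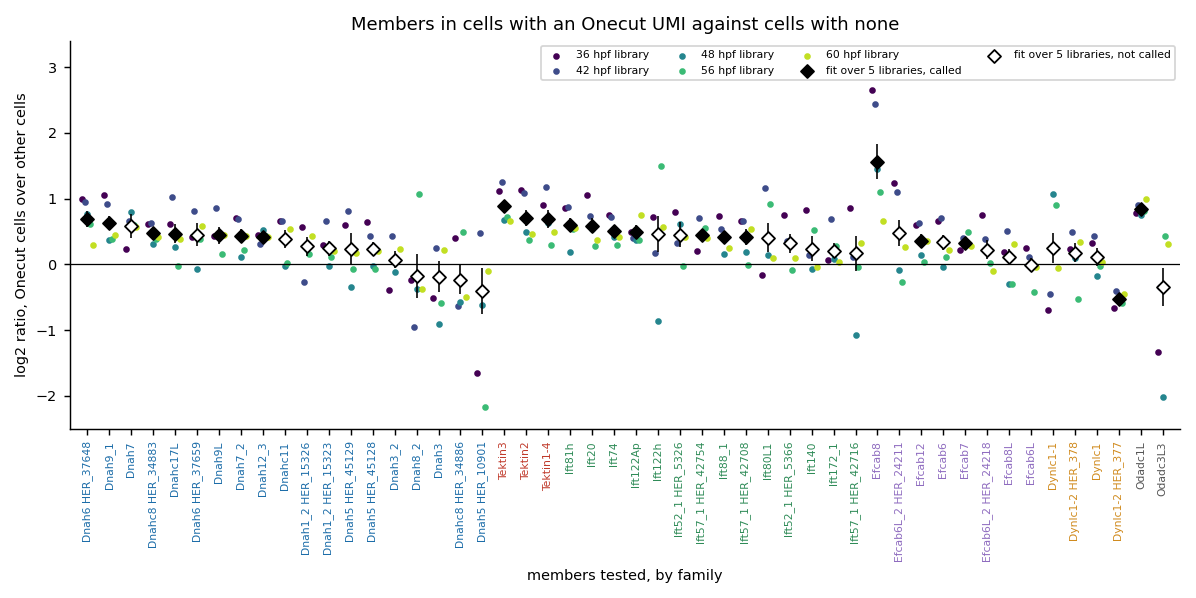
Log2 ratio of CPM in *Onecut* cells over other cells (vertical axis) for the 50 members tested (horizontal axis, grouped and coloured by family); small points are the 5 libraries, diamonds the edgeR estimate with its SE, filled where the adjusted p was under 0.05. Filled diamonds stand above 0 for 21 members, with *Efcab8* highest at 1.56, and below 0 only for *Dynlc1-2* (HER_377) at -0.53.

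The same members were then compared between *Onecut* cells and cells with a UMI of an animal pole marker (*Foxq2*, *Hbn* or *Six3*) and none of *Onecut*, which numbered 1414, 1231, 1115, 1098 and 2448 in order of age. The animal pole is another part of the larval ectoderm known for its cilia. These cells were shallower than *Onecut* cells, with medians of 1127, 1290, 983, 724.5 and 1153 UMIs. Both comparisons share the *Onecut* cells. Of 45 members tested, 4 were called higher in *Onecut* cells (background 13%) and 2 lower (background 11.5%), and the median log2 fold change was 0.01 against 0.03 over all features. In 6 members the ratio was above 1 in 5 of 5 libraries (background 19.6%). Summed members took 4224, 3533, 3944, 4335 and 4545 CPM in *Onecut* cells, against 3762, 3063, 3742, 4234 and 3750 in animal pole marker cells. Without *Tektin3* and *Odadc1L* the ratio was 1.02 (0.98 to 1.06), 1.01 (0.97 to 1.05), 0.938 (0.897 to 0.982), 0.923 (0.878 to 0.971) and 1.10 (1.07 to 1.13), on either side of 1.

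Called higher in *Onecut* cells than in animal pole marker cells were *Efcab8* at 1.71 (SE 0.29, adjusted p = 0.00141, edgeR), *Odadc1L* at 0.87 (SE 0.12, adjusted p = 0.000412, edgeR), *Tektin3* at 0.41 (SE 0.080, adjusted p = 0.00294, edgeR) and *Efcab7* at 0.33 (adjusted p = 0.0182, edgeR). *Tektin3* took 338, 279, 474, 480 and 805 CPM in animal pole marker cells, with ratios of 1.31 to 1.39. Lower were *Dynlc1-2* (HER_377) at -0.68 (SE 0.11, adjusted p = 0.000832, edgeR) and *Efcab6L* at -0.63 (SE 0.11, adjusted p = 0.00172, edgeR). *Efcab6L* took 86.8, 69.2, 81.5, 58.4 and 86.0 CPM in *Onecut* cells, against 131, 117, 115, 120 and 109 in animal pole marker cells, lower in each library. No heavy chain passed among 16 tested, in edgeR or in DESeq2, and at an unadjusted p under 0.05 0 were higher and 2 lower. *Dnah5* (HER_45128) was called lower in 3 alternatives: with equal weight for each cell (-0.40, adjusted p = 0.0127, limma), with cells thinned to 500 UMIs (-0.42, adjusted p = 0.0279, edgeR) and without the 60 hpf library (-0.37, adjusted p = 0.0295, edgeR). No Ift gene passed among 12 tested in either tool, and 0 had an unadjusted p under 0.05. The call of *Efcab7* was lost without the 42 hpf library (adjusted p = 0.0550) or the 48 hpf library (adjusted p = 0.0763). Without the 60 hpf library 5 of 43 members were called lower (background 1098 of 8716 features).

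**Figure D4:**
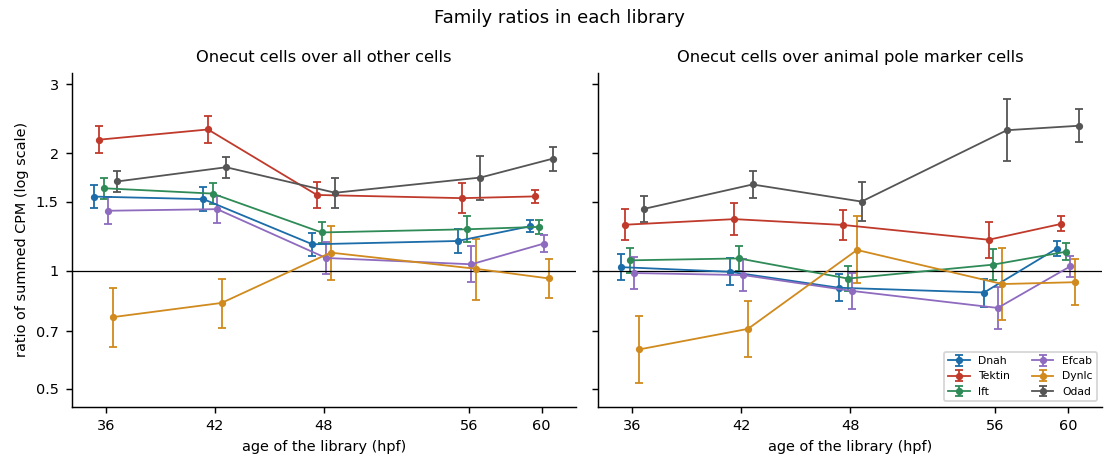
Ratio of the summed CPM of each family in *Onecut* cells over all other cells (left) and over animal pole marker cells (right) on a log axis, against age in hpf; bars are 95% Poisson intervals and each point is 1 library. On the left Tektin, Ift, Dnah and Odad ratios lie above 1 at each age. They run from 1.17 for Dnah at 48 hpf to 2.30 for Tektin at 42 hpf. Efcab ratios there run from 1.04 at 56 hpf, with an interval that spans 1, to 1.44 at 42 hpf. Dynlc ratios run from 0.76 at 36 hpf to 1.11 at 48 hpf. On the right Dnah and Ift ratios lie between 0.88 and 1.14.

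Members were also counted in cells that held a UMI of another marker, as a description with no test. Groups set by *Tck* and *Onecut* together are left aside here. Of the other marker groups counted, cells with *Tck*, taken here as a marker of ciliated cells, had the highest share at 36, 42 and 48 hpf. They took 4651, 3898, 4240, 4486 and 4086 CPM in order of age. Among the lowest shares were the following. Cells with *Pks1* (pigment cells) took 1405, 1661, 1984, 2590 and 3206, and cells with *Acsc* or *Giant* (putative rudiment ectoderm) 1438, 1487, 1864, 1852 and 2584 CPM. In *Pks1* cells the share was higher at each later age, while in *Tck* cells it was highest at 36 hpf. These shares include *Odadc1L*. At 36 hpf it gave 281 of 532 member UMIs in *Pks1* cells and 1086 of 2538 in *Acsc* or *Giant* cells. At 60 hpf it gave 217 of 2440 in *Pks1* cells.

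The same cells were read for *Tektin3* alone. In *Pks1* cells it took 31.7 (16.4 to 55.4), 48.2, 129, 214 and 665 (608 to 725) CPM in order of age, against 255, 211, 473, 436 and 821 in cells without *Pks1*. *Acsc* or *Giant* cells had 25.5, 38.9, 125, 119 and 534 CPM, as low as *Pks1* cells at 36 hpf and likewise highest at 60 hpf. Free RNA released during dissociation is captured with any cell, and its part in these counts was not tested. Within *Onecut* cells, *Tck* cells and animal pole marker cells *Tektin3* was also higher at 60 hpf, with 1093, 934 and 803 CPM, than at 36 hpf, with 445, 521 and 337 CPM.

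Of the marker groups counted, cells with a marker of division had the highest *Odadc1L* level. In cells with a *Plk1* or *Cdk1* UMI it took 1169, 1148, 1213, 1235 and 922 CPM in order of age, against 231, 179, 131, 78.3 and 105 in cells with neither. It thus stayed near the same level up to 56 hpf in the first group, which made up 10.4% of cells at 60 hpf, against 33.9% at 36 hpf. With *Plk1* and *Cdk1* cells left out, the log2 change of *Odadc1L* from 36 to 60 hpf was -1.08 and its log2 fold change in *Onecut* cells was 0.78 (adjusted p = 0.00021, edgeR). *Tektin3* took 234, 175, 456, 516 and 910 CPM in cells with *Plk1* or *Cdk1*, against 252, 225, 462, 411 and 791 in cells with neither. It was thus lower in the first group at 42 hpf and higher at 56 and 60 hpf, by intervals that do not overlap.

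**Figure D5:**
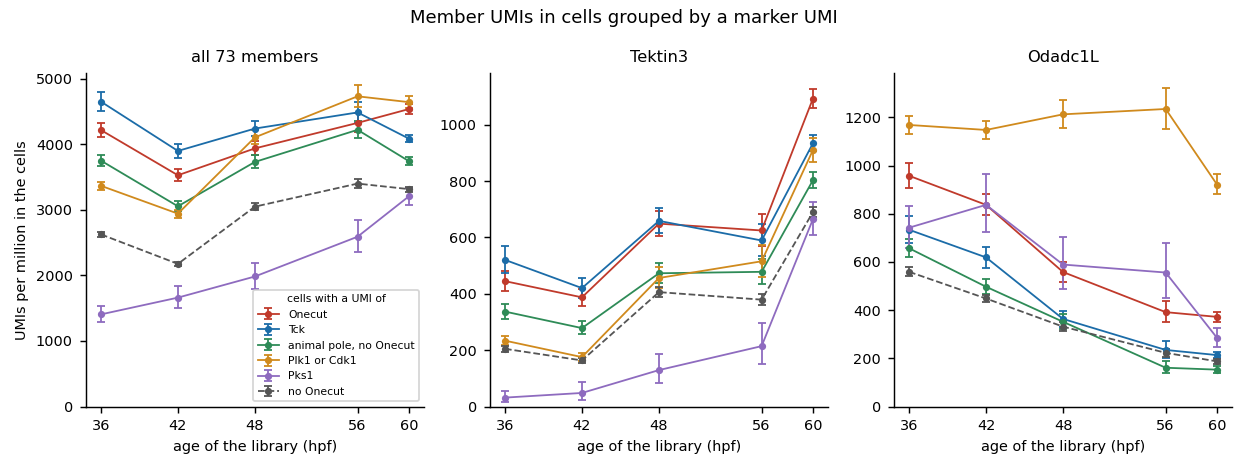
CPM in cells with a UMI of the named marker (vertical axes, starting at 0) against age in hpf for all 73 members, *Tektin3* and *Odadc1L*; solid lines are cells with a marker UMI, the dashed line is cells with no *Onecut* UMI, bars are 95% Poisson intervals and each point is 1 library. Of the groups drawn, *Pks1* cells start lowest for *Tektin3*, at 31.7, and reach 665 at 60 hpf, and *Odadc1L* stays between 922 and 1235 in *Plk1* or *Cdk1* cells.

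At the level of single cells most cells held a member UMI. After each cell was thinned to 500 UMIs, which left out 11 shallower cells of the 36 hpf library and 509 of the 56 hpf one, the share of cells with at least 1 member UMI was 68.2% (66.97 to 69.5), 64.1% (62.6 to 65.5), 71.1% (69.7 to 72.5), 74.1% (72.6 to 75.5) and 74.6% (73.7 to 75.5) in order of age. In *Onecut* cells it was 82.4%, 76.1%, 77.3%, 75.9% and 84.8%, against 65.8%, 61.5%, 69.7%, 73.7% and 71.8% in other cells, higher in *Onecut* cells in 5 of 5 libraries by 10.8 ± 5.89 points (SD, n = 5 libraries). At 56 hpf the intervals overlapped, with 72.2 to 79.3% in *Onecut* cells and 72.1 to 75.3% in other cells. Without thinning, the shares were 91.3% to 96.5% in *Onecut* cells and 84.0% to 88.8% in other cells. In *Pks1* cells, which are not expected to bear motile cilia, 45.3%, 43.6%, 44.9%, 50% and 55.4% of thinned cells held a member UMI, at median depths of 956 to 1643 UMIs before thinning. Before thinning, *Odadc1L* alone gave 281 of 532 member UMIs in *Pks1* cells at 36 hpf and 191 of 379 at 42 hpf. The share of cells was not taken without it. A UMI of any member, *Odadc1L* included, therefore does not by itself mark a ciliated cell.

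Genes of the cilium that lie outside the name rule were read from a list of 135 features. They cover outer dynein arm and dynein assembly factors as 1 group, the nexin link and the ruler that spaces it, and the central pair. They also cover other axoneme genes, regulators, the BBSome and the transition zone at the ciliary base. The further transport genes are mostly subunits of the transport complexes named otherwise than Ift, with kinesin and dynein chains. Of the 81 that passed the filter, 3 reached at least 2-fold at 60 hpf relative to 36 hpf and none was lower by that fold, both under the backgrounds of 10.2% and 12%, with a median log2 change of 0.26. In *Onecut* cells 41 of 76 tested were called higher (background 10.4%) and 1 lower (background 8.74%), with a median log2 fold change of 0.41, next to 0.40 for the members. Among those called were *Bbs1* (HER_19242), a BBSome subunit, at 0.80, *Rib43A*, a protein inside the doublet microtubules, at 0.77, *Lrrc50*, a dynein assembly factor, at 0.56, *Spag16* of the central pair at 0.51 and *Gas8* of the nexin link at 0.47. The 1 called lower was a copy of *Wdr60* (HER_14847), a transport dynein chain, at -0.37, while another copy (HER_38905) was called higher at 0.43. *FoxJ1*, a regulator of motile cilia in vertebrates, had 0.44 and an adjusted p of 0.052 (edgeR). Against animal pole marker cells *Bbs1* (HER_19242) at 0.53, *Rib43A* at 0.22, *Lrrc50* at 0.09, *Spag16* at 0.04 and *Gas8* at -0.06 were not called (edgeR). Called higher there were *Heatr2* at 0.63, *Pih1d1* at 0.47 and *Rfxdc2L* (HER_39308) at 0.26 (background 13%). Called lower there was *Tppp3* (HER_20104) at -0.69 (background 11.5%).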

How the data were processed

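Larvae were raised, dissociated and fixed in methanol by the authors, who made 1 10x Chromium 3′ library at each of the 5 ages and sequenced them in a single flow cell. The submitters' processing notes name Cell Ranger 3.1.0 and Seurat 4.0. The genome build is not given in the sources used here. The authors deposited UMI counts, whole numbers with no normalization, for 38707 features and 26781 barcodes. The study's own filter was applied, which asks for more than 200 genes, fewer than 4000 genes and fewer than 10000 UMIs. Doublets were not called and remain in all counts.

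UMIs were summed per library. For ages, sums were scaled with DESeq2 1.42.0 size factors (1.10, 1.06, 0.768, 0.710 and 1.62 in order of age), features with a mean of at least 10 were kept, and log2 ratios used a pseudocount of 1. For *Onecut*, sums over cells with and without an *Onecut* UMI were fitted in edgeR 4.0.16 (TMM factors, filterByExpr, quasi-likelihood test, library as a block, *Onecut* left out), with adjustment over all features and a threshold of 0.05. Each library gives both sums, so the pairing comes from the library itself. The test was checked on simulated data. Those data held no difference of the contrast between ages and no choice of cells by depth, so the check covers neither. Python 3.11.15, R 4.3.3 and limma 3.58.1 were used.

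Members and lists were chosen with earlier results of these data known. Members named in the text are the 3 with the most UMIs in each family, the 5 with the largest change up and the 5 with the largest change down by age, the 10 highest and the 5 lowest by *Onecut* fold, and those highest at 42 hpf. Others were named after their values were seen. Alternatives changed the scaling, the filters, the cells kept, the depth and the test, and left out each library. Cells of 1000 to 2000 UMIs, thinning before grouping, leaving out *Plk1* or *Cdk1* cells and leaving out *Tektin3* and *Odadc1L* were chosen after seeing the data. Depth per library and intervals are given with the results, and cover counting error only.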

Additional observations from a re-analysis of the deposited data

Results flagged for a closer look

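*Dynlc1-1* (HER_375), a dynein light chain gene, was the only tested member whose *Onecut* ratio lay above 1 in some libraries and below 1 in another by its counting interval. It took 11.4, 31.6, 77.6, 88.2 and 21.6 CPM in *Onecut* cells in order of age, against 18.4, 43.3, 37.0, 47.2 and 22.4 in other cells. At 42 hpf the ratio was 0.731 (0.535 to 0.981). At 48 and 56 hpf it was 2.10 (1.62 to 2.71) and 1.87 (1.39 to 2.48), while at 36 and 60 hpf its interval spanned 1. The counts in *Onecut* cells behind these ratios were 53, 99 and 71 UMIs. The difference between the ages was not tested, since each age had 1 library. In the fit over all 5 libraries its log2 fold change was 0.25 (SE 0.23) and was not called (adjusted p = 0.518, edgeR).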

How the results depend on the processing

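There is 1 library per age, so no age difference has a replicate. The *Onecut* groups rest on single UMIs, and depth decides who is in them.

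Without a replicate block for the library, the pairing of both sums is lost. Of 50 members 1 was then called higher and 0 lower in *Onecut* cells, against 21 and 1. Over all 11867 features 78 were then called higher, against 1232, and 78 lower, against 1037. The median log2 fold change of members was 0.38. Against animal pole marker cells 1 of 45 members was called higher and 0 lower without the block, against 4 and 2. Over all 8976 features it was 76 higher and 91 lower, against 1167 and 1032. At least 2 *Onecut* UMIs gave 10 of 48 members higher (background 8.1%) and thinning to 500 UMIs 12 of 43 (background 9.22%). Thinning before grouping gave 9 of 42 (background 501 of 7747 features). Against animal pole marker cells, equal weight for each cell in limma gave 6 of 45 members lower (background 1164 of 8976 features). Thinning there gave 4 of 36 lower (background 729 of 5158). Leaving out 1 library at a time gave 16 to 21 members higher than in other cells (background 856 of 11936 to 1058 of 10804 features). Against animal pole marker cells it gave 3 to 4 higher (background 698 of 9664 to 1123 of 8716). There it gave 2 to 5 lower (background 645 of 9664 to 1098 of 8716).

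From 36 to 60 hpf, 5 of 53 members were at least 2-fold higher with a pseudocount of 10 (background 6.98%). With equal weight for each cell it was 4 (background 6.81%), against 8 (background 10.2%). The median log2 change of 0.55 was 0.50 with CPM, 0.49 with a pseudocount of 10, 0.64 in cells with over 500 genes, 0.33 with equal weight and 0.48 without *Plk1* or *Cdk1* cells. With equal weight, *Ift74* had -0.0060 and *Tektin2* -0.020. The 60 over 36 hpf ratio of the summed share, 1.28, was 1.32, 1.19 and 1.37 with over 500 genes, equal weight and no *Plk1* or *Cdk1* cells, and 1.30 without *Tektin3* and *Odadc1L*. The thinned share of cells with a member UMI was 6.38 points higher at 60 than at 36 hpf, but -1.07 points without thinning.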

Other observations

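The cilium genes outside the name rule can be read by structure. By group, the share called higher in *Onecut* cells (edgeR) was 7 of 9 for the nexin link and ruler. It was 3 of 4 for the central pair and 8 of 14 for outer arm and dynein assembly factors. For other axoneme genes it was 8 of 12, for transport 6 of 11 and for the BBSome 4 of 11. For the transition zone it was 4 of 13 and for regulators 1 of 2. The share over all features was 10.4%. The median log2 fold changes in *Onecut* cells stood in another order. They were 0.49 for the BBSome, 0.45 for outer arm and dynein assembly factors and 0.43 for transport. Other axoneme genes had 0.42, the nexin link and ruler 0.41, the central pair 0.38, regulators 0.33 and the transition zone 0.30. A share called also depends on how many UMIs the genes have, and that part was not tested. The 6 transport genes were *Cluap1*, *Rabl5*, *Ttc26*, *Ttc30b* and *Wdr19_2*, named for subunits of the transport complexes, and *Wdr60* (HER_38905), a dynein chain, while the kinesin gene *Kif3AL* had 0.43 and was not called (adjusted p = 0.400, edgeR). Between 36 and 60 hpf the central pair genes had a median log2 change of 0.83, on 5 members. The outer arm and dynein assembly genes had -0.05, on 14. *Hydin_2* and *Spag16* of the central pair stood at 1.05 and 0.99. These medians lie beside 0.82 for the Dnah members and 0.15 for the Ift members, and no test was made between groups.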
